A study of Mus musculus with 2 samples.

Results

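Interleukins, members of the TNF superfamily, their receptors, the genes named as TNF-induced, and the Toll-like and Nlrp sensors of innate immunity were examined in astrocytes sorted after middle cerebral artery occlusion (MCAO). The members were all genes on the array whose symbol starts with Il and a digit, with Tnf, with Tlr and a digit, or with Nlrp and a digit, irrespective of their measured values. This gave 145 of 19494 genes with a named probe set, which were sorted by symbol into 47 ligands, 2 soluble inhibitors, 57 receptors, 8 TNF-induced genes and 31 sensors. By this sorting Il1f5, a receptor antagonist, stood with the ligands, the soluble decoys Il22ra2 and Tnfrsf11b with the receptors, and the pseudogene Nlrp1c-ps with the sensors. Tnfaip8l1, Tnfaip8l2 and Tnfaip8l3, named for their likeness to Tnfaip8, stood with the TNF-induced genes. Male C.B-17/Icr-+/+Jcl mice, 7 weeks of age, underwent permanent MCAO and received BrdU in both groups. The mice of the MCAO + exercise group then lived with a running wheel for 15 days, and the MCAO + non-exercise group had none. Mice of both groups had been housed with a wheel before the operation. Cells carrying ACSA-2, an astrocyte surface antigen, were sorted from the ipsilateral cortices on POD15 with magnetic beads. RNA of several extracts, each from more than 1 mouse, was mixed into 1 pool per group, and each pool was measured on 1 Clariom S array.

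Interleukin-1, interleukin-18 and TNF are secreted early in tissue injury and act on receptors that signal through TRAF proteins and NF-κB. The receptors for interleukin-1 and interleukin-18, but not those for TNF, use the adaptor MyD88. Toll-like receptors recognize microbial and damage-associated molecules, and most of them use MyD88 as well. Nlrp3 assembles the inflammasome, in which caspase-1 cleaves the precursors of IL-1β and IL-18. In the brain, microglia and infiltrating macrophages express most of these sensors, while astrocytes carry receptors for many of the cytokines.

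The values were log2 intensities, and each difference is the array labelled MCAO + exercise minus the array labelled MCAO + non-exercise. Signs were taken from the array labels, and they run against the direction in the gene lists of the study. The sign was opposite for 72 of 72 listed genes that could be matched, and 0 of them were members, so every direction below turns if the labels were exchanged. For Camk2a, Mobp, Slc1a3 and Ms4a7 the sizes were those in the study's lists, with only the sign turned. Apart from the arrays, the study reports less Lcn2 after exercise. This was a tendency in qPCR and a significantly smaller share of Lcn2-positive astrocytes in staining. Which direction is right was not tested here. With 1 array per group there was no spread between replicates and no test was made. Background was the 25th percentile of the named probe sets, a log2 intensity of 5.08 on the non-exercise array and 4.89 on the exercise array, and a gene above it on at least 1 array was kept. Of the 145 members, 103 were kept, 94 of them above background on both arrays, 6 only on the non-exercise array and 3 only on the exercise array. The 42 members at background were 15 ligands, 9 receptors, 2 TNF-induced genes and 16 sensors. Probe sets differ in brightness for the same amount of RNA, so levels were compared between arrays and not between genes.

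Few members had a log2 difference past 1. They were the IL-1 receptor antagonist Il1rn, the IL-15 receptor chain Il15ra, the interleukin Il9 and the hyaluronan-binding protein gene Tnfaip6. Of the 103 kept members, 1 was higher by more than 1, against 3.77% of the 15196 kept genes, and 3 were lower by more than 1, against 2.36%. In either direction this was 3.88% of the members and 6.13% of all kept genes, so the members were not more often past the threshold than other genes. With a threshold of 0.58, about 1.5-fold, 6 members were higher and 15 lower, against 13.8% and 10.9% of all kept genes. Smaller differences leaned one way. Of the kept members, 72 (69.9%) were lower on the exercise array, compared with 46.4% of all kept genes, and the median difference was -0.22, compared with 0.04. After median centring 73.8% of the kept members and 55.8% of all kept genes were lower, after quantile normalization 70.9% and 50.1%, and after loess correction 71.8% and 49.9%. In this bulk measurement, fewer cells of a type and less RNA per cell cannot be told apart.

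**Figure D1:**
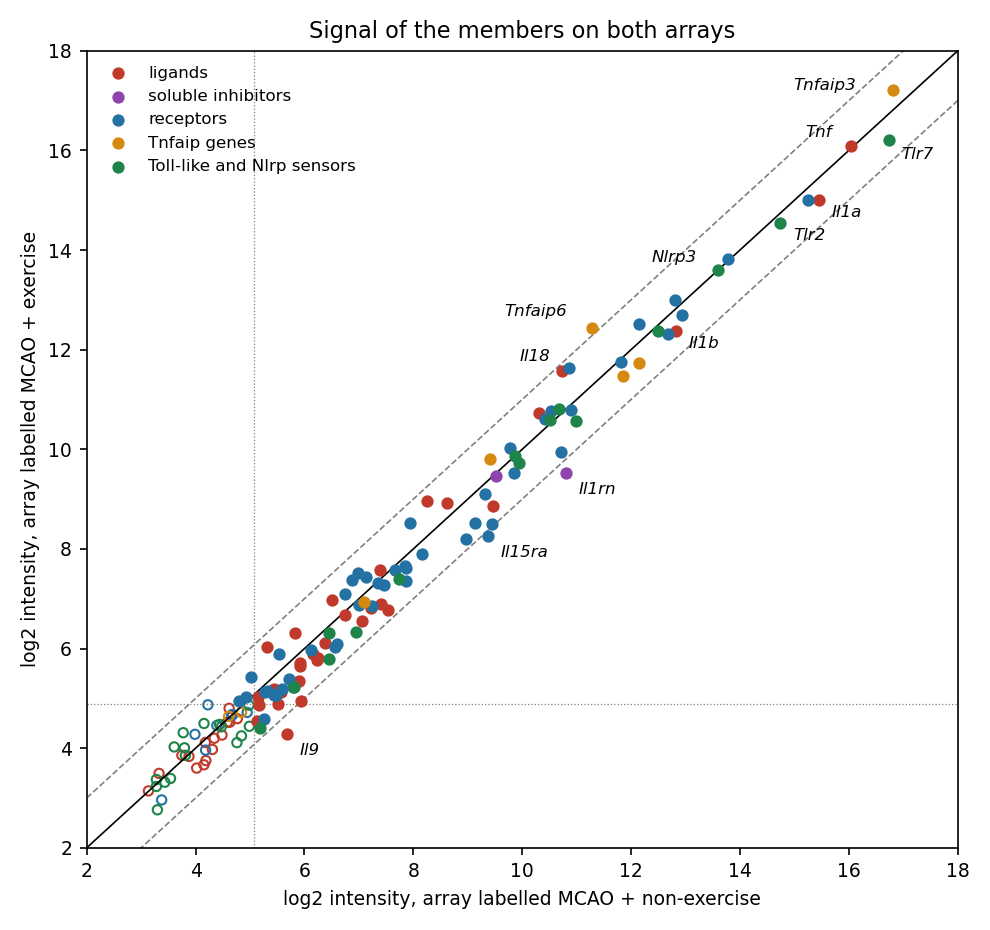
Log2 intensity of the 145 members on the array labelled MCAO + non-exercise (x axis) and on the array labelled MCAO + exercise (y axis), 1 pooled sample each, colored by role. Filled points are the 103 kept members and open points the 42 at background; the solid line marks equal signal, the dashed lines a difference of 1 and the dotted lines the background of each array, and most members lie close to the solid line.

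The regulatory sequence in front of the 3 genes that passed the threshold with both arrays above background, and of Tnfaip3, an NF-κB target and feedback inhibitor, is shown because many members are known targets of NF-κB and AP-1. The sequences are from RefSeq (GRCm38.p6) and run from 250 bases before the start of the gene to 30 bases after it, 5′ to 3′. Capitals mark an NF-κB motif, which is GGG and TTCC with any 3 bases between them, or an AP-1 motif, TGANTCA, searched on both strands, and no marked motif overlapped another.
Il1rn, chr2:24336610-24336889, + strand: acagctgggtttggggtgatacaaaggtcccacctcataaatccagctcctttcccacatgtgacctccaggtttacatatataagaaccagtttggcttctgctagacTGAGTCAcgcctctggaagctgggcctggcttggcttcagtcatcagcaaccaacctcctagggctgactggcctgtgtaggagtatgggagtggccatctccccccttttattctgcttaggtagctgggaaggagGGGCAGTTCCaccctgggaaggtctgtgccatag
Il15ra, chr2:11705462-11705741, + strand: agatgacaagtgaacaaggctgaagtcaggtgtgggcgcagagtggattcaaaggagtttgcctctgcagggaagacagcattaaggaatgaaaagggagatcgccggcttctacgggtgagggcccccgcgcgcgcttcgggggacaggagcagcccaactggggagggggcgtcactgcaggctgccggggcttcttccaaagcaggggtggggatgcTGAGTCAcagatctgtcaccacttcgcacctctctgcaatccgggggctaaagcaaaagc
Tnfaip6, chr2:52037863-52038142, + strand: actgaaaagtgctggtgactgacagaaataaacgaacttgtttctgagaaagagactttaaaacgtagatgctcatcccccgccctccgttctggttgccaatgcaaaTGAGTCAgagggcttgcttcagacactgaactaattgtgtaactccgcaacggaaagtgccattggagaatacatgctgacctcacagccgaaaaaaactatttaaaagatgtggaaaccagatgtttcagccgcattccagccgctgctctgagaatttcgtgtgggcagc
Tnfaip3, chr10:19015381-19015660, - strand: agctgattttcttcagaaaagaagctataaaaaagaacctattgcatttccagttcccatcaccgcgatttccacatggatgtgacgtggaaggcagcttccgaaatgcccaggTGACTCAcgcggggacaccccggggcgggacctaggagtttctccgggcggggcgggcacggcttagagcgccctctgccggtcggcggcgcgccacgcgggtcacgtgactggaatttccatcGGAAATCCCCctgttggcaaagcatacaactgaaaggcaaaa
The AP-1 letters were present in the 4 windows shown, and the NF-κB letters in those of Il1rn and Tnfaip3. The NF-κB motif began 4 bases before the start of Il1rn and 12 bases before that of Tnfaip3. The AP-1 motif began 141, 30, 142 and 136 bases before the start of Il1rn, Il15ra, Tnfaip6 and Tnfaip3. The windows shown were picked for their matches where a gene has several start sites. Of the 3 windows of Il1rn, 2 held the NF-κB letters and 1 the AP-1 letters, of the 2 of Il15ra 1 held the AP-1 letters, and of the 2 of Tnfaip3 both held the NF-κB and 1 the AP-1 letters. RefSeq windows were found for 115 of the 145 members, 140 windows in all. The NF-κB motif was in 19 of these (13.6%) and in 5.2% of all 32851 windows of this length, and the AP-1 motif was in 26 (18.6%) and 7.46%. Among the members with the NF-κB letters were Il6, Il9, Il1r1, Tlr2, Tlr3, Tlr6 and Tnfrsf9. A match describes the letters and not binding, which was not measured.

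Il1rn, which encodes the secreted antagonist that occupies the IL-1 receptor without signaling, had a log2 intensity of 10.80 on the non-exercise array and 9.52 on the exercise array. The difference of -1.28 corresponds to a 2.43-fold lower signal. The agonists differed less. Il1a had 15.46 and 15.00, a difference of -0.45, and Il1b, whose product is cleaved in inflammasomes, had 12.83 and 12.37, a difference of -0.47. Il1r1, the signaling receptor, had 9.13 and 8.52, and Il1r2, a decoy that binds IL-1 without transmitting a signal, had 8.96 and 8.20, differences of -0.61 and -0.77. The co-receptor Il1rap went the other way, with 10.85 and 11.62, a difference of 0.77. The ligand, antagonist, receptor and decoy were therefore all lower on the exercise array while the co-receptor was higher, and these signs were the same after median centring, quantile normalization and loess correction.

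The other branches of the IL-1 family were divided. Il18, which is processed by the inflammasome as well, had 10.72 and 11.57, a difference of 0.85. Its soluble antagonist Il18bp had 9.53 and 9.47, a difference of -0.06 that was -0.26 after quantile normalization, and the accessory receptor chain Il18rap had 6.56 and 6.03. Il33, a nuclear alarmin of astrocytes and oligodendrocytes, had 10.31 and 10.73, a difference of 0.42 that was 0.21 after quantile normalization. Il1f9, the IL-36γ gene, had a difference of -0.61 and its receptor gene Il1rl2 a difference of 0.58. Il1f6, which encodes IL-36α, and Il1f10 had differences of -0.43 and -0.26, which were -0.28 and -0.06 after quantile normalization. Il1f5 and Il1f8 were at background. The neuronal accessory protein gene Il1rapl1 had a difference of 0.31 and Il1rapl2 one of -0.41, which were 0.33 and -0.21 after quantile normalization.

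Members of the IL-1 family lie side by side in the genome. Over all members, 14 runs of neighbors, with at most 1 other gene between them, held at least 2 kept members. In 12 runs all kept members were lower, in 0 all were higher and in 2 both signs occurred. Of all kept members 69.9% were lower, and of all kept genes 46.4%. Several genes of these runs lay in the lowest range of level, where 83.8% of the kept members were lower. Neighboring genes over the whole array were not counted, so the runs have no share to be set against. All kept members were lower in 10 runs after quantile normalization and in 11 after loess correction. Of the 6 genes from Il1f8 to Il1rn in RefSeq gene order, 4 were kept and all 4 were lower, with a median difference of -0.52. The pair of Il1a and Il1b had a median of -0.46. Of the 5 receptor genes from Il1r2 to Il18rap, 4 were kept and 3 were lower, the exception being Il1rl2. The other run with both signs was Il12rb2, with a difference of 0.54, and Il23r, with -0.32. The 3 neighboring receptor genes Tnfrsf26, Tnfrsf22 and Tnfrsf23 were lower by 0.93, 0.25 and 0.22, and the pair of Tlr1 and Tlr6 had differences of -0.22 and -0.32. Paralogs lying together are similar in sequence, and cross-hybridization of their probes was not tested.

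Of the 37 interleukin ligands, 23 were kept, and 17 of these were lower and 6 higher, with a median of -0.40. The median was -0.24 after quantile normalization, -0.26 after loess correction and -0.25 with an offset of 32, and the median level of these genes, 6.25, lay in the lowest range of level, where 62.4% of all kept genes were lower. Apart from Il1a, Il1b, Il18, Il33 and Il1f9, their signals lay closer to background. Il6, the acute-phase cytokine that signals through gp130, had 6.75 and 6.68, and its difference of -0.07 changed sign in quantile normalization and loess correction. Il10, the anti-inflammatory cytokine, had 6.50 and 6.98, a difference of 0.48. Il34, a neuronal ligand of the CSF-1 receptor, had 7.06 and 6.56, a difference of -0.50. Il16, a chemoattractant of CD4-bearing cells, had a difference of 0.30 and Il15, which sustains natural killer cells, one of 0.18. Il12a, a subunit of IL-12, had 5.82 and 6.32, a difference of 0.50.

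The interleukin ligands not yet named, among them cytokines of T helper cells, were dim or at background. Il17b was the brightest of them, with 7.21 and 6.81. Il13 had 5.93 and 4.95, a difference of -0.98, just short of the threshold and with the exercise array barely above background. Il9 had 5.69 on the non-exercise array and 4.28 on the exercise array, where it was not above background. Its difference of -1.41 therefore has only a bound, at least 1.73-fold lower, which is under the 2-fold of the threshold. Il5 and Il17a had differences of -0.25 and -0.28, Il17b and Il17c of -0.40 and -0.44, and Il23a and Il27, subunits of cytokines of the IL-12 family, of -0.26 and -0.44. With these low signals, Il25 and Il21 were above background only on the non-exercise array. Il2, Il3, Il4, Il7, Il11, Il17d, Il17f, Il19, Il20, Il22, Il24 and Il31 were at background on both arrays. Over the 101 members with a difference or a bound, 1 was higher and 2 were lower by more than 1, against 3.56% and 1.74% of all genes under the same rule.

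**Figure D2:**
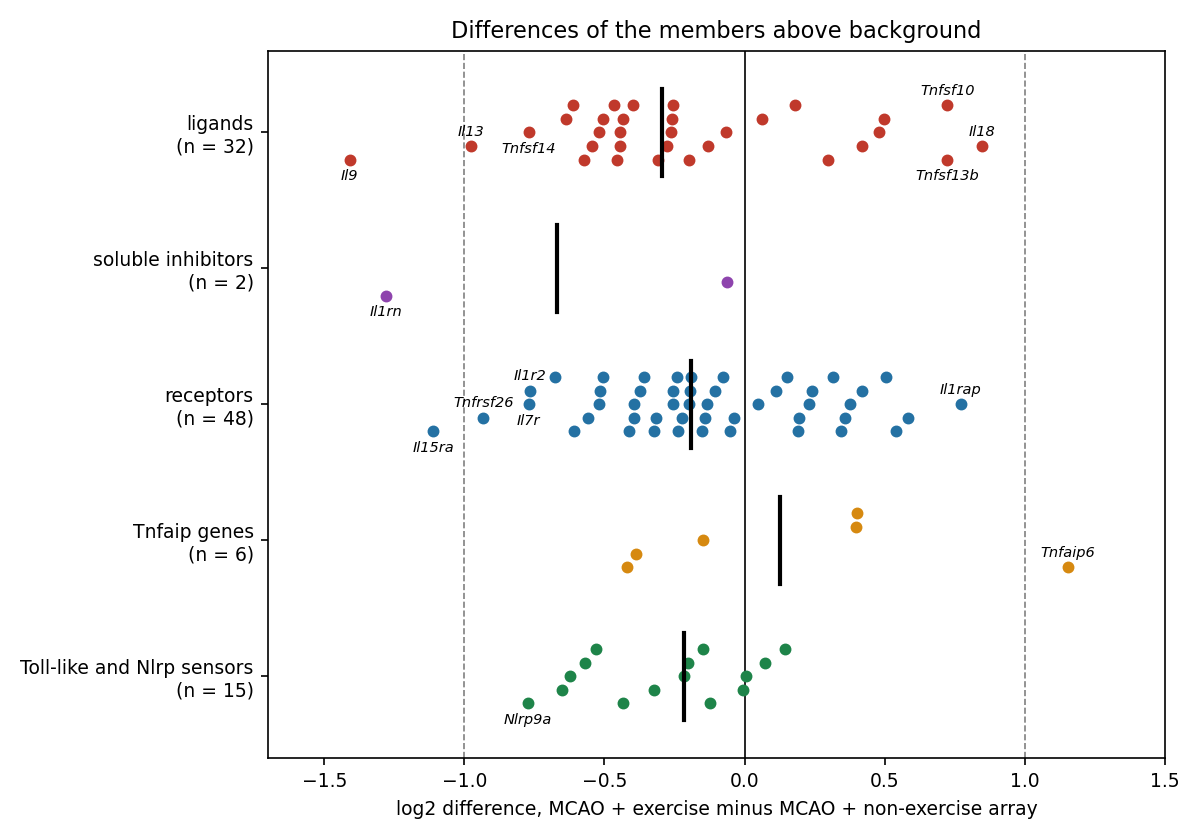
Log2 difference between the arrays (x axis, MCAO + exercise minus MCAO + non-exercise) for the 103 kept members by role. Each point is 1 gene, offset vertically only to separate points, Il9 is drawn at its measured difference, the black bar is the median of the group and the dashed lines mark -1 and 1; medians run from -0.67 for the 2 soluble inhibitors to 0.13 for the 6 TNF-induced genes.

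Of the 10 ligands of the TNF superfamily, 9 were kept, 6 of them lower and 3 higher, with a median of -0.20 that was -0.11 after quantile normalization and -0.04 after loess correction. Tnf itself had a strong signal on both arrays, 16.03 and 16.10. Its difference of 0.06 had the other sign under median centring, quantile normalization and loess correction, so no direction could be read. Other ligands differed more, in both directions. Tnfsf10, the death ligand TRAIL, had 8.25 and 8.97, and Tnfsf13b, the B cell survival factor BAFF, had 5.31 and 6.03, a difference of 0.72 in both cases. Tnfsf14, known as LIGHT, had 7.54 and 6.77, a difference of -0.77, and Tnfsf15 and Tnfsf4 had differences of -0.52 and -0.54. Tnfsf9 had a difference of -0.20, and Tnfsf18 one of -0.13 that changed sign after quantile normalization and loess correction. The RANK ligand gene Tnfsf11 was above background only on the non-exercise array, and Tnfsf8 was at background.

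The receptors of the TNF superfamily were lower as a group by small amounts. Of 20, 19 were kept, 17 (89.5%) were lower and 2 higher, with a median of -0.25. Over all kept genes 46.4% were lower and the median was 0.04. Tnfrsf26, one of a set of mouse decoy-like receptors, had 9.44 and 8.51, a difference of -0.93 that passed 1 under median centring, quantile normalization and loess correction. Tnfrsf1b, the TNF receptor of myeloid cells, had 12.68 and 12.32, a difference of -0.36. Tnfrsf1a, the widely expressed TNF receptor, had 11.81 and 11.75, a difference of -0.05 that was -0.24 after quantile normalization. Tnfrsf12a, the receptor for the cytokine TWEAK that is induced in injury, had 13.78 and 13.82, and its difference of 0.05 changed sign in all 3 scalings. Tnfrsf21, also called death receptor 6, had 9.78 and 10.02, a difference of 0.24 that was 0.04 after quantile normalization. The RANK gene Tnfrsf11a had 9.84 and 9.53, a difference of -0.32. Tnfrsf19, or Troy, a receptor of glial and progenitor cells, had a difference of -0.26. Receptors of lymphocytes had differences of -0.50 for Tnfrsf4, -0.56 for Tnfrsf9, -0.40 for Tnfrsf17, -0.37 for Tnfrsf8, -0.20 for Tnfrsf13c, -0.04 for Tnfrsf13b and -0.19 for Tnfrsf25. Tnfrsf9, Tnfrsf17 and Tnfrsf8 were close to background, with 5.22, 5.19 and 5.07 on the exercise array. After quantile normalization Tnfrsf4, Tnfrsf9, Tnfrsf17 and Tnfrsf8 shrank to -0.38, -0.37, -0.19 and -0.17, whereas Tnfrsf13c grew to -0.26. Tnfrsf18 had a difference of -0.19, which changed sign after quantile normalization, and Tnfrsf14, the receptor for LIGHT, had one of -0.08. Tnfrsf11b, the decoy osteoprotegerin, was above background only on the non-exercise array.

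The 37 interleukin receptors were divided. Of 29 kept, 15 were lower and 14 higher, with a median of -0.10 that was 0.01 after quantile normalization and under 0.01 after loess correction. Il15ra, which presents IL-15 to neighboring cells, had 9.37 and 8.26, a difference of -1.11 or 2.16-fold lower, and it stayed past 1 in every alternative. Il7r had 10.71 and 9.94, a difference of -0.77, and Il3ra one of -0.52. Il10ra, the ligand-binding chain for IL-10 in leukocytes, had 15.24 and 15.01, and Il10rb, a chain shared by several receptors, had 12.94 and 12.70, a difference of -0.24 for each that was -0.37 and -0.41 after quantile normalization. The IL-6 receptor genes had small positive differences. Il6ra had 12.15 and 12.52, a difference of 0.37, and Il6st, which encodes gp130, had linear intensities of 7172 and 8179, a log2 difference of 0.19. They shrank to 0.18 and 0.01 after quantile normalization and to 0.21 and 0.03 after loess correction, so that for Il6st hardly any difference was left. Il4ra and Il13ra1, which form a receptor for IL-4 and IL-13, had differences of -0.10 and 0.19, and after quantile normalization the first was -0.33 and the other had changed sign. Il17ra had a difference of 0.23, which was 0.01 after quantile normalization, Il17rc of 0.50, Il17rb of 0.34, Il12rb2 of 0.54 and the IL-13 decoy Il13ra2 of 0.36. Il20rb, Il23r and Il21r had differences of -0.40, -0.32 and -0.13. Il2rb had a difference of -0.14 that changed sign after quantile normalization, and Il9r one of -0.15 that changed sign after quantile normalization and loess correction. Il5ra, Il12rb1 and Il17rd were above background only on the exercise array. At background were Il2ra, Il18r1, Il20ra, Il22ra1, Il22ra2, Il27ra, Il31ra, Il17re and the death receptor gene Tnfrsf10b.

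The genes with a Tnfaip symbol, most of them named for induction by TNF, had the only member that was higher by more than 1. Tnfaip6, which encodes the secreted hyaluronan-binding protein TSG-6, had 11.27 and 12.43, a difference of 1.15 or 2.22-fold higher. It was 0.94 after quantile normalization and 0.97 after loess correction. Tnfaip3, which encodes the ubiquitin-editing enzyme A20, had 16.82 and 17.22, a difference of 0.40, and Tnfaip1 also had one of 0.40. After quantile normalization they were 0.24 and 0.19. Tnfaip2 had 12.15 and 11.73, and Tnfaip8l2, a negative regulator in immune cells, had 11.86 and 11.47, differences of -0.42 and -0.39. These grew to -0.63 and -0.58 after quantile normalization. Tnfaip8 had a difference of -0.15, and Tnfaip8l1 and Tnfaip8l3 were at background. Of the 6 kept genes, 3 were higher and 3 lower.

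The innate sensors contained no member past the threshold. Of 12 Toll-like receptors, 10 were kept. Of these, 8 were lower, or 80% against 46.4% of all kept genes, 2 were higher, and the median was -0.18. After quantile normalization and loess correction all 10 were lower, with medians of -0.34 and -0.31. The endosomal RNA receptor Tlr7 had 16.73 and 16.20, a difference of -0.53. Its neighbor Tlr8 had 9.87 on both arrays, with a difference near 0 that was -0.21 after quantile normalization. Tlr2, the receptor for bacterial lipopeptides, had 14.74 and 14.54, a difference of -0.20 that was -0.39 after quantile normalization, and its partners Tlr1 and Tlr6 had differences of -0.22 and -0.32, as given above. Tlr4, the lipopolysaccharide receptor, had linear intensities of 2042 and 1513, a log2 difference of -0.43. Tlr13, a mouse receptor for bacterial ribosomal RNA, had 12.50 and 12.37, a difference of -0.12 that was -0.32 after quantile normalization. Tlr3 and Tlr9 were higher, by 0.14 and 0.07, but Tlr3 changed sign after quantile normalization and loess correction and Tlr9 in all 3 scalings. Tlr5 had a difference of -0.15, and Tlr11 and Tlr12 were at background.

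Of 19 Nlrp genes, 5 were kept. Nlrp3 had 13.60 on both arrays, and its difference of 0.01 was negative in all 3 scalings. Nlrp1b, an inflammasome sensor of mice, had 6.96 and 6.33, a difference of -0.62, and Nlrp10 had 6.45 and 5.79. Nlrp9c had 5.80 and 5.23, a difference of -0.57 that was -0.38 after quantile normalization. Nlrp9a was above background only on the non-exercise array, so its difference of -0.77 has only a bound, at least 1.23-fold lower. At background were Nlrp1a, Nlrp1c-ps, Nlrp6, Nlrp9b and Nlrp12, and also Nlrp2, Nlrp5, Nlrp14 and the 6 Nlrp4 genes, which are known mainly from oocytes and early embryos.

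Dim genes in general were lower on the exercise array, so the members were set beside genes of the same level. The kept genes were divided into tertiles by mean log2 intensity, with borders at 6.67 and 9.28. In the lower tertile the median was -0.37 over 37 members and -0.15 over all 5066 genes, in the middle tertile -0.20 over 31 members and 0.06 over all, and in the upper tertile -0.05 over 35 members and 0.17 over all. The members thus had the lower median in each tertile. In the lower tertile the measured difference of 1 member, Il9, passed 1, against 6.65% of all genes there in either direction, but its bound did not. In the middle tertile it was Il15ra, against 6.34%, and in the upper tertile Il1rn and Tnfaip6, against 5.41%.

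**Figure D3:**
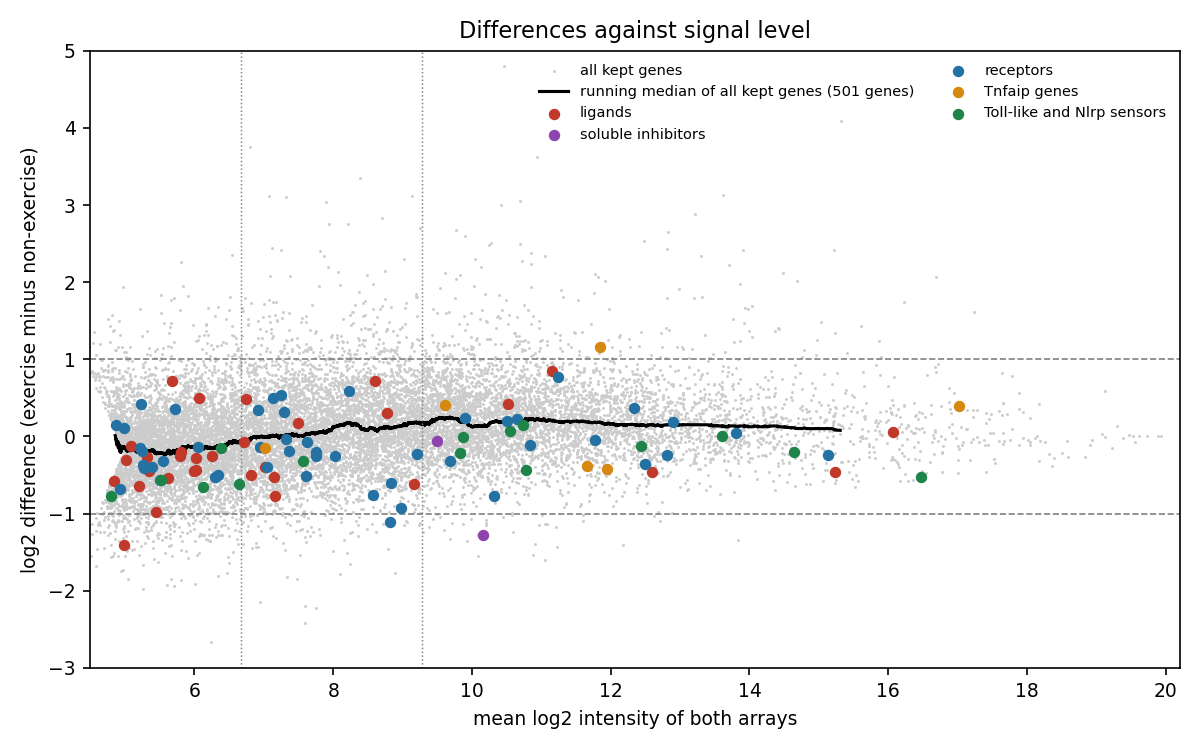
Log2 difference (y axis, exercise minus non-exercise array) against the mean log2 intensity of both arrays (x axis) for the kept genes in grey and the 103 kept members in color, with the running median of all kept genes in black. The dotted lines separate tertiles of the kept genes, the dashed lines mark -1 and 1, 11 kept genes lie outside the axes, and the members scatter around and below the running median at all levels.

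Genes that carry the signals of these receptors were set beside the members, in 5 lists. For each list the gene with the greatest difference in each direction, the gene with the highest level and some central components are named. Toll-like and IL-1 receptor signaling had 30 kept genes, 19 higher and 11 lower, the median was 0.08 and 0 passed the threshold. Peli1, a ubiquitin ligase, had 13.25 and 14.14, a difference of 0.90, and Ly96, the partner of Tlr4 in lipopolysaccharide binding, had 13.46 and 12.78, a difference of -0.68. Ly86 had 17.33 and 17.02, and the adaptor Myd88 had a difference of 0.07. The other adaptors were divided, with differences of 0.39 for Tirap, -0.39 for Ticam1 and 0.03 for Ticam2, and the lipopolysaccharide co-receptor gene Cd14 had one of -0.45.

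The 16 kept NF-κB genes were divided, 9 higher and 7 lower, and the median was 0.04. Nfkbie, an inhibitor of NF-κB, had 8.14 and 9.21, a difference of 1.08, and Ikbke had one of -0.47. Rel had 15.89 and 16.20, whereas Rela and the inhibitor Nfkbia both had a difference of -0.02. TNF receptor signaling leaned as the members did, with 21 of 31 kept genes lower, 10 higher and a median of -0.18. Tnip3, a partner of A20, had 10.61 and 9.26, a difference of -1.36, and the deubiquitinase gene Cyld had one of 0.71. Casp8, which starts apoptosis downstream of death receptors, had 14.40 and 14.26.

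The inflammasome genes had 12 of 21 higher and 9 lower, and the median was 0.01. Panx1, a channel that releases ATP, had 5.43 and 6.68, a difference of 1.25, and Pstpip1 had one of -0.83. The non-exercise value of Panx1 lay close to the background of 5.08 on that array. Txnip had 15.61 and 15.62, and Casp1 had 9.99 on both arrays. The JAK-STAT and gp130 list had 17 of 33 kept genes higher and 16 lower, and the median was 0.02. Ptpn11, a phosphatase of receptor signaling, had 8.30 and 10.11, a difference of 1.81, and the gp130 cytokine Osm had 12.01 and 11.13, a difference of -0.87. Csf1r had 17.63 and 17.57, and Socs3, the feedback inhibitor of gp130, had a difference of 0.99. The signs of these list genes were examined without further scaling only.

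The pools were labelled as sorted astrocytes, and defining astrocyte markers were present, but so were those of other cells known to express the members. All 11 measured astrocyte markers were higher on the exercise array, from 0.11 for Slc1a2 to 1.80 for S100b, with a median of 0.85 and summed intensities of 139029 on the non-exercise and 213559 on the exercise array. Of 17 microglia markers, 14 were lower and 3 higher, from -0.62 for Tyrobp to 0.69 for Tmem119. Their median was -0.26, their sums were 1624812 and 1377748, and 0 were at background.

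Myeloid cells other than microglia were not uniformly lower. Of 10 markers of border macrophages and monocytes, 6 were higher and 4 lower, from -1.04 for Ms4a7 to 1.30 for Chil3, the median was 0.12 and the sums were 20889 and 15789. Of 8 kept neutrophil markers, 6 were higher and 2 lower, from -0.54 for Mpo to 2.83 for Ngp. Their median was 0.78, and Camp was at background. The sums were 27853 and 27759, but Csf3r, with 14.67 and 14.52, made up most of both. Sums are weighted to the brightest probe sets of a list. Of 7 kept T and NK cell markers, 6 were lower and 1 higher, from -1.94 for Cd8a to 0.21 for Cd3d, with a median of -0.21, sums of 862 and 644 and Cd3g at background. Cd8a had 4.73 on the exercise array, under the background of 4.89 there, so its difference has only a bound. The median level of the kept T and NK cell markers, 5.67, was low. The 4 measured B cell markers ranged from -0.27 for Cd79b to 0.22 for Cd79a, with a median of 0.06 and sums of 310 and 329.

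Vascular and neural markers moved in different directions. All 10 endothelial markers were lower, from -0.65 for Tek to -0.06 for Ocln (median -0.27, sums 151285 and 121321), and so were 5 of 5 fibroblast markers, from -1.81 for Col3a1 to -0.40 for Lum (median -0.95, sums 1519 and 863). The 8 mural cell markers ran from -1.53 for Acta2 to 1.10 for Abcc9 (median -0.38, sums 11943 and 14485). All 7 oligodendrocyte markers were higher, from 0.60 for Mbp to 2.06 for Mobp (median 0.92, sums 632510 and 1126868). The 10 neuron markers ran from -1.60 for Syt1 to 3.13 for Camk2a (median 1.08, sums 10208 and 43913). Camk2a, with 12.06 and 15.19, made up most of the neuron sum on the exercise array. Among the markers, the study lists Slc1a3, Aldoc, Mobp and Camk2a as lower and Ms4a7 as higher with exercise. These directions are opposite to the signs by label given here. The part of microglia or of any other cell type in the differences of the members was not tested.

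**Figure D4:**
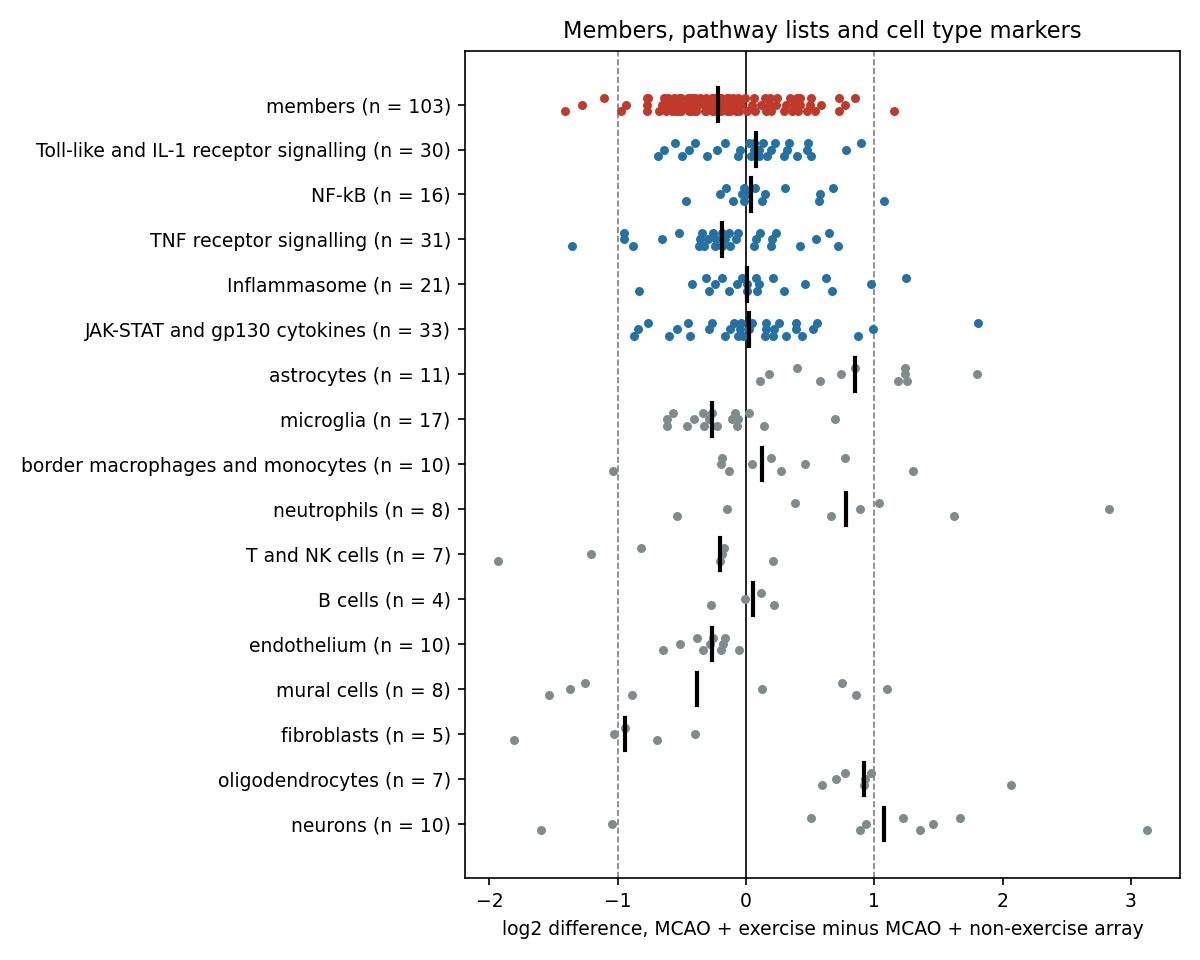
Log2 differences (x axis, MCAO + exercise minus MCAO + non-exercise array) of the 103 kept members in red, of kept genes in 5 pathway lists in blue and in 11 cell type marker lists in grey, with the number of kept genes beside each name. Each point is 1 gene, the black bar is the median and the dashed lines mark -1 and 1; the median of the members was -0.22, and those of the marker lists ran from -0.95 for fibroblasts to 1.08 for neurons.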

How the data were processed

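Pooled astrocyte RNA of each group was hybridised to 1 Clariom S array. Normalization by the authors used GCCN-SST-RMA (Affymetrix Expression Console and RMA appear in the submitters' processing notes). The deposited intensities were linear and covered 22142 probe sets, running from 5.53 to 999964 on the non-exercise array and from 6.30 to 999964 on the exercise array. The sources used here name no genome build for the arrays. Of the probe sets, 19527 had 1 gene symbol in the platform annotation, 0 had several and 2615 had none. The probe set with the highest mean stood for a gene, and all 145 members had a single probe set and matched RefSeq by gene ID. Here log2 was taken without further scaling. The negative control filter of the methods needs control probe sets, which were not used here, so the 25th percentile replaced it. A gene above background on 1 array has a bound, computed against the background of the other array. The threshold of 1 on the log2 scale is that of the methods. The number of arrays limits the precision. The counting of genes past the threshold was checked on simulated intensities. The members, roles, lists and alternatives were chosen with earlier results of these data known. The genes named are a list of central cytokine, receptor and sensor genes, members past the threshold, the 3 members of each role with the highest level, and the extremes of each pathway and marker list. Other members were named to account for the group, and Cd14, Myd88, Tirap, Ticam1, Ticam2, Rela, Nfkbia, Casp1, Socs3, Camp, Csf3r and Cd3g after their values were seen. Proteins were not printed, because no protein table was used here. The scripts ran in Python 3.11.15 with pandas 2.3.3 and NumPy 2.4.6 for the tables, statsmodels 0.14.6 for loess, SciPy 1.17.1, and matplotlib 3.10.9 for plots. Alternatives were another background, no filter, a background on both arrays, 3 scalings, an offset, the mean over probe sets and another threshold.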

Additional observations from a re-analysis of the deposited data

How the results depend on the processing

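The count of members higher by more than 1 was 1 and became 0 after quantile normalization and after loess correction by mean level (span 0.3), where Tnfaip6 ended under 1, and 6 with a threshold of 0.58. The count of members lower by more than 1 was 3 and became 5 with each array centred on the median of its kept genes, which added Il13 and Tnfrsf26, and 15 with a threshold of 0.58. Under a background passed on both arrays and an offset of 32 before log2 it was 2, without Il9, where 1.64% and 0.651% of all genes were lower by more than 1. After quantile normalization and loess correction it was 4, where 1.96% and 1.97% of all genes were. Median centring moved the median of all kept genes by 0.11, so that the median of the members became -0.33 and all kept genes past the threshold were 433 higher and 575 lower, against 573 and 359 without it. The median of the TNF-induced genes, 0.13, was -0.048 with a background at the 10th percentile and without a filter, where 2 dim genes entered. Il9 had a difference of -0.70 with the offset. Il1rn and Il15ra were past 1 in all 8 alternatives to the scaling, filter and probe sets. Of the 103 kept members, 92 kept their sign in all 3 scalings, 67 lower and 25 higher. The size of 29 of these 92 differences fell and that of 24 grew by more than 1.5 times in at least 1 of the scalings, 5 of them in both ways. The spread between animals could not be measured with 1 array per group, and dim genes are limited by the background.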
